A study of Mus musculus with 8 samples.

Results

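Genes whose products tie integrin adhesions to the actin cytoskeleton or bind actin filaments were followed across cultured cortical astrocytes, namely Tln1, Parva, Flna, Lims1 and Cnn2. They are 5 of the 5822 named genes on the array and were picked by symbol, with earlier results of the Cx43 KO and WT contrast on these arrays known. That contrast is therefore given for them as a description, and nothing is supported with it. The array carried 14 of its 9568 features for them, each with a single gene symbol, of which 8 gave a ratio on all 8 arrays, 3 on 6 or 7 arrays and 3 on 0 arrays.

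Talin 1, the product of Tln1, binds the cytoplasmic tail of beta integrins and actin and takes part in integrin activation. Parva (alpha-parvin) and Lims1 (PINCH1) join the integrin-linked kinase in a complex that also sits at integrin tails and, through parvin, on actin. Flna (filamin A) crosslinks actin filaments and binds beta integrins, and Cnn2 (calponin 2) binds actin filaments outside striated muscle. Astrocytes in culture spread on the dish through integrins and form focal adhesions and stress fibres. Connexin43, the gap junction protein deleted here, is known to associate with the cytoskeleton at its cytoplasmic tail.

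The compared groups were Cx43 KO astrocytes, cultured from newborn mice lacking connexin43, and WT astrocytes, cultured from newborn wild-type mice, named as C57BL/6j in the label that is complete, with 4 arrays each. Every array set astrocyte RNA against the same kind of reference, a pool of RNA from adult male and female tissues (brain, lung, liver, kidney, spleen, stomach, heart, aorta and gonads). Each genotype has 1 array in each of lot batches 1 to 4. Separate cultures or animals are not stated for the arrays, so every p-value reflects array-to-array spread that may be technical. The title of Cx43 KO 3 lacks the word KO.

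Values are log ratios of astrocyte over pool RNA, read as log2 although no base is stated, less the median ratio of the array. With another base every log2 value would be rescaled by 1 factor, while signs, correlations and p-values would stay. Exact 0, which filled 42.4% to 63.4% of the features of an array, was read as no ratio. The direction rests on the labels' channels, and levels of marker genes are given beside them. The mean of 4 astrocyte markers lay between 0.49 and 1.93 on all arrays, and that of 4 genes of adult lung, kidney and stomach between -3.56 and -3.02. The 4 tissue genes were those with 8 values among 24 listed after values were seen, so their level is no separate support. Among the astrocyte markers Fabp7 was high (3.06 to 4.61), while Aldoc lay below 0 on Cx43 KO 2, Cx43 KO 4 and WT 1. Gja1, the targeted gene, was not analysed here, so the genotype labels were not checked by its transcript.

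One array stood apart in its cell type markers. On Cx43 KO 4 the astrocyte marker mean was 0.49, against 1.66 to 1.81 on the other Cx43 KO arrays and 1.62 to 1.93 in WT. These were 4 of the 8 astrocyte markers on the array, and Slc1a2 had a ratio on 0 arrays. The mean of 5 of 11 microglia and macrophage markers ran from 0.29 to 2.20 in Cx43 KO and from 0.67 to 1.27 in WT, with Fcer1g, Ctss and Ptprc at 0 ratios. The mean of 6 of 10 fibroblast and meningeal markers ran from -0.53 to 2.56 in Cx43 KO and from 0.53 to 2.22 in WT. In these means Cx43 KO 4 was the lowest array for the astrocyte list and the highest for the microglia and fibroblast lists. For the fibroblast mean WT 1 was close to it, at 2.22. Among the markers in the microglia and fibroblast means, Tyrobp, Lgmn and Col6a3 were not highest on Cx43 KO 4, while the others were. Col3a1 had the widest range, from -3.98 on Cx43 KO 1 to 3.67 on Cx43 KO 4. Cx43 KO 4 was also lowest in the neuron mean (-2.27), in Cnp (oligodendrocyte, -1.53) and in Smtn (smooth muscle, -0.38). In bulk cultures, fewer cells of a type and less RNA per cell cannot be told apart. The spread of ratios also differed, with a median absolute value of 0.593 to 0.660 on Cx43 KO arrays and 0.508 to 0.600 on WT arrays.

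Promoter sequences are shown for Flna and Cnn2, whose features 2046 and 9550 were the pair with the smallest p between genes, and for Tln1, whose genotypes separated most clearly. They come from RefSeq on GRCm38.p6 and run from 250 bases before to 50 bases after a start site, on the strand of the gene. RefSeq's table held 6 entries for 4 of the 5 genes. Capitals mark matches on either strand to an Sp1 motif (GGGCGG), a TEAD motif (GGAATG), an AP-1 motif (TGANTCA) or the CArG box of serum response factor, the factor known to drive many actin genes.
Flna, chrX:74246485-74246784, minus strand: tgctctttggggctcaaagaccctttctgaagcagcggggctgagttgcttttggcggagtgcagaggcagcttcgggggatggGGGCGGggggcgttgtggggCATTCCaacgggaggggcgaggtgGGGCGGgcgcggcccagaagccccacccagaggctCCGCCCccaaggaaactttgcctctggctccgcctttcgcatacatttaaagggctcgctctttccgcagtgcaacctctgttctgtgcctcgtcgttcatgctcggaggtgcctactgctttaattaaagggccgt
Cnn2, chr10:79988350-79988649, plus strand: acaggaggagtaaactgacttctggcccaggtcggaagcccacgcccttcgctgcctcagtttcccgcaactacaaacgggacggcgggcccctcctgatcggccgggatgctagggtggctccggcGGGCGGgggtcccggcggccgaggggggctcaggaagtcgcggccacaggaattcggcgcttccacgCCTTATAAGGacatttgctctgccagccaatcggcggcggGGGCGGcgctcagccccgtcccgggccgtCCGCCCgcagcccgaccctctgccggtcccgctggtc
Tln1, chr4:43562534-43562833, minus strand: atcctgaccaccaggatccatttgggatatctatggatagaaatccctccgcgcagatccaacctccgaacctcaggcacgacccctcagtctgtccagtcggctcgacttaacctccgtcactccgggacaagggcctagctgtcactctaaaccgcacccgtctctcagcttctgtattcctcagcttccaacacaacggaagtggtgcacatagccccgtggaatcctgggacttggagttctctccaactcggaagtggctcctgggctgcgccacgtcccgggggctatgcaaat

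The 3 windows had different content. Flna held 3 Sp1 matches and 1 TEAD match, Cnn2 held 3 Sp1 matches and 1 CArG box, and Tln1 held 0 of the 4 motifs. Among all 32851 promoter windows 35.7% held an Sp1 match, 14.7% a TEAD match, 7.81% an AP-1 match and 1.63% a CArG box. GC content was 62.0% for Flna, 70.7% for Cnn2 and 57.0% for Tln1, against a median of 52.7%. Lims1 has 3 entries, of which 1 held 3 Sp1 matches, and the other two held 0 of the 4 motifs. The motifs were chosen after the values were seen, and a match is a description of these letters.

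Tln1 had the clearest separation of the genotypes among the members. Its log2 ratios to the pool were 2.10, 2.45, 2.79 and 2.88 on Cx43 KO arrays 1 to 4, against 1.55, 1.80, 1.25 and 1.77 on WT arrays 1 to 4. Every Cx43 KO array lay above every WT array. Among the 2596 genes and unnamed features with 8 values, 1.73% had that pattern, and 2.47% had the opposite one. Since Tln1 was chosen with this contrast known, nothing is read from the pattern. The mean was 2.55 ± 0.35 (SD, n = 4) in Cx43 KO and 1.59 ± 0.25 (SD, n = 4) in WT, a difference of 0.96 on the log2 scale (SE 0.22, 95% interval 0.48 to 1.45), or 1.95-fold. The level was well above that of the tissue pool in both genotypes.

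The talin difference rested on 1 feature, number 7331, because the other features, 8042 and 8232, had a ratio on 0 arrays. It was positive in each lot batch, at 0.56, 0.65, 1.54 and 1.11 in lots 1 to 4. Leaving out 1 array gave 0.85 to 1.12. Quantile and scale normalization, which remove the wider spread of the Cx43 KO arrays, gave 0.62 and 0.63. In the limma fit 0% of the 3505 rows tested had an adjusted p under 0.05, and so 0 of the 5 members (0.449 for Tln1). Without adjustment, 3.85% of all tested were higher and 3.65% lower in Cx43 KO at a p of 0.05.

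Flna was high against the pool in both genotypes, and a single Cx43 KO array carried most of its difference. The gene averages were 2.05, 2.10, 3.10 and 2.14 on Cx43 KO arrays 1 to 4, against 1.85, 1.79, 2.04 and 2.21 on WT arrays 1 to 4. The groups overlapped, and only Cx43 KO 3 lay clearly above the rest. The mean was 2.35 ± 0.51 (SD, n = 4) in Cx43 KO and 1.97 ± 0.19 (SD, n = 4) in WT, a difference of 0.38 (SE 0.25, 95% interval -0.18 to 0.93). Without Cx43 KO 3, the array whose title lacks the word KO, the difference was 0.13. It was 0.05 with quantile and 0.02 with scale normalization, and the lot batches gave 0.20, 0.31, 1.07 and -0.06.

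The high value on Cx43 KO 3 was shared by 3 filamin features. Feature 2046 read 2.00, 1.88, 2.82 and 1.89 on Cx43 KO arrays 1 to 4 and 1.94, 1.77, 1.77 and 1.85 on WT arrays 1 to 4. Apart from Cx43 KO 3 its values spanned a narrow band in both genotypes. Feature 7550 read 2.09, 2.31, 2.93 and 2.33 in Cx43 KO and 2.13, 1.70, 1.85 and 2.03 in WT, a difference of 0.49 (SE 0.21, 95% interval 0.02 to 0.96), with WT 1 above Cx43 KO 1. Feature 9460 gave 3.56 and 2.21 on Cx43 KO arrays 3 and 4, had no ratio on Cx43 KO 1 and 2, and ran from 1.47 to 2.74 in WT. The fourth feature, 8653, had a ratio on 0 arrays. Since feature 9460 enters the average on some arrays only, the average was also taken over features with a ratio on all arrays, which gave a difference of 0.40.

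Parva differed less than Tln1, and its 4 features did not share 1 level. The averages were 2.03, 2.45, 1.94 and 1.93 on Cx43 KO arrays 1 to 4, against 1.76, 1.45, 1.41 and 2.07 on WT arrays 1 to 4. The Cx43 KO arrays lay above 3 of the WT arrays, but WT 4 exceeded all of them except Cx43 KO 2. The mean was 2.09 ± 0.25 (SD, n = 4) in Cx43 KO and 1.67 ± 0.31 (SD, n = 4) in WT, a difference of 0.42 (SE 0.21, 95% interval -0.04 to 0.88). The lot batches gave 0.27, 1.01, 0.54 and -0.14, and scale and quantile normalization 0.13 and 0.15. Without lot batch 2 the difference was 0.22.

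All 4 parvin features had a higher mean in Cx43 KO, by unequal amounts. Features 644 and 3372 differed by 0.26 each (SE 0.29 and 0.21), feature 4271 by 0.84 (SE 0.35) and feature 7325 by 0.65 (SE 0.30). Feature 4271 was 2.68, 2.65, 1.89 and 1.77 on Cx43 KO arrays 1 to 4 and 1.89, 0.58, 1.08 and 2.10 on WT arrays 1 to 4, so the groups overlapped. Feature 7325 was 3.25, 3.46 and 3.41 on Cx43 KO arrays 2 to 4 and 1.90, 3.02, 2.71 and 3.25 on WT arrays 1 to 4. Its groups did not overlap, but the lowest Cx43 KO and highest WT values were equal to 2 decimals. It had no ratio on Cx43 KO 1, where the average therefore lacks the highest of the 4 features. Over the 3 features with a ratio on all arrays the difference was 0.45.

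Lims1, the partner of parvin in the integrin-linked kinase complex, was the only member near or below 0 and the only one with a lower mean in Cx43 KO. Before the array median was subtracted, its ratios to the pool ran from -0.80 to 0.30. Its single feature, 5255, read 0.02, -1.02 and -0.57 on Cx43 KO arrays 2 to 4, with no ratio on Cx43 KO 1, against -0.65, -0.05, -0.17 and -0.23 on WT arrays 1 to 4. The groups overlapped, with the lowest value on Cx43 KO 3 and the highest on Cx43 KO 2. The mean was -0.52 ± 0.52 (SD, n = 3) in Cx43 KO and -0.27 ± 0.26 (SD, n = 4) in WT, a difference of -0.25 (SE 0.27, 95% interval -0.85 to 0.36). Without Cx43 KO 3 the difference was 0.00. Without Cx43 KO 2 it was -0.52. Before adjustment Lims1 correlated with detection, at r = -0.77 and rho = -0.82 with the percentage of features that had a ratio (exact permutation test over 7 arrays, p = 0.0488 and adjusted p = 0.869 for r over 20 relations). For the deviations from the genotype means r was -0.78 (exact permutation within genotype, p = 0.0069, adjusted 0.139). That p is the smallest possible over 7 arrays, so over 20 relations it could not pass alone. Without the 2 arrays farthest from the Lims1 median, the pooled r was -0.70. With the fibroblast and meningeal mean, r was -0.51 and rho -0.61 (exact permutation test, p = 0.238, adjusted 0.869), and -0.99 without the same 2 arrays, Cx43 KO 3 and WT 1. The part of detection and of these markers in the Lims1 difference was not tested.

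Cnn2 lay above the pool on every array, and its 2 features gave different genotype differences. The averages were 1.71, 1.56, 1.74 and 1.16 on Cx43 KO arrays 1 to 4, against 1.76, 1.06, 1.14 and 1.11 on WT arrays 1 to 4. WT 1 was the highest of all, while the other WT arrays lay below every Cx43 KO array. The mean was 1.54 ± 0.27 (SD, n = 4) in Cx43 KO and 1.27 ± 0.33 (SD, n = 4) in WT, a difference of 0.27 (SE 0.22, 95% interval -0.20 to 0.75), which was 0.44 without WT 1. With quantile and scale normalization it was 0.08 and 0.04. Feature 9550 was 1.97, 1.74, 2.32 and 1.50 in Cx43 KO and 1.63, 1.08, 1.09 and 1.49 in WT, a difference of 0.56 (SE 0.22, 95% interval 0.06 to 1.05) that was positive in all 4 lot batches. Feature 1687 was 1.46, 1.38, 1.16 and 0.82 in Cx43 KO and 1.89, 1.04, 1.19 and 0.73 in WT, a difference of -0.01 (SE 0.26, 95% interval -0.58 to 0.56).

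**Figure D1:**
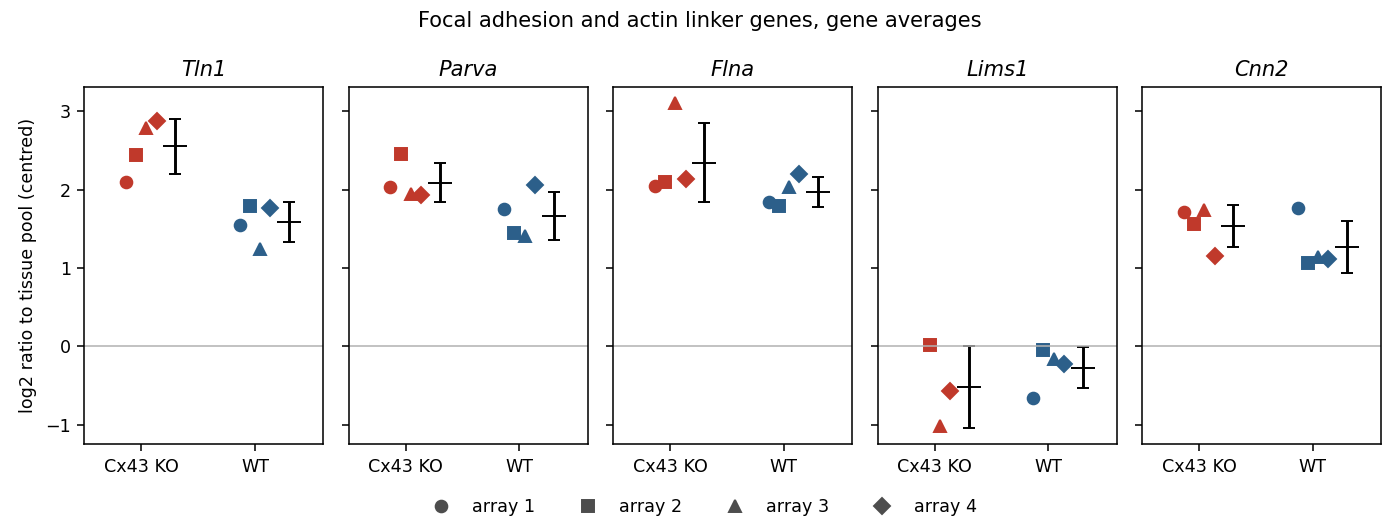
Centred log2 ratio to the tissue pool (y axis) of each gene, averaged over its features, on the Cx43 KO arrays (red, left) and WT arrays (blue, right), with the marker shape giving the array number and the bar the mean and SD. Tln1 separates the genotypes (2.10 to 2.88 in Cx43 KO, 1.25 to 1.80 in WT), while the other genes overlap and Lims1 lies near or below 0.

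**Figure D2:**
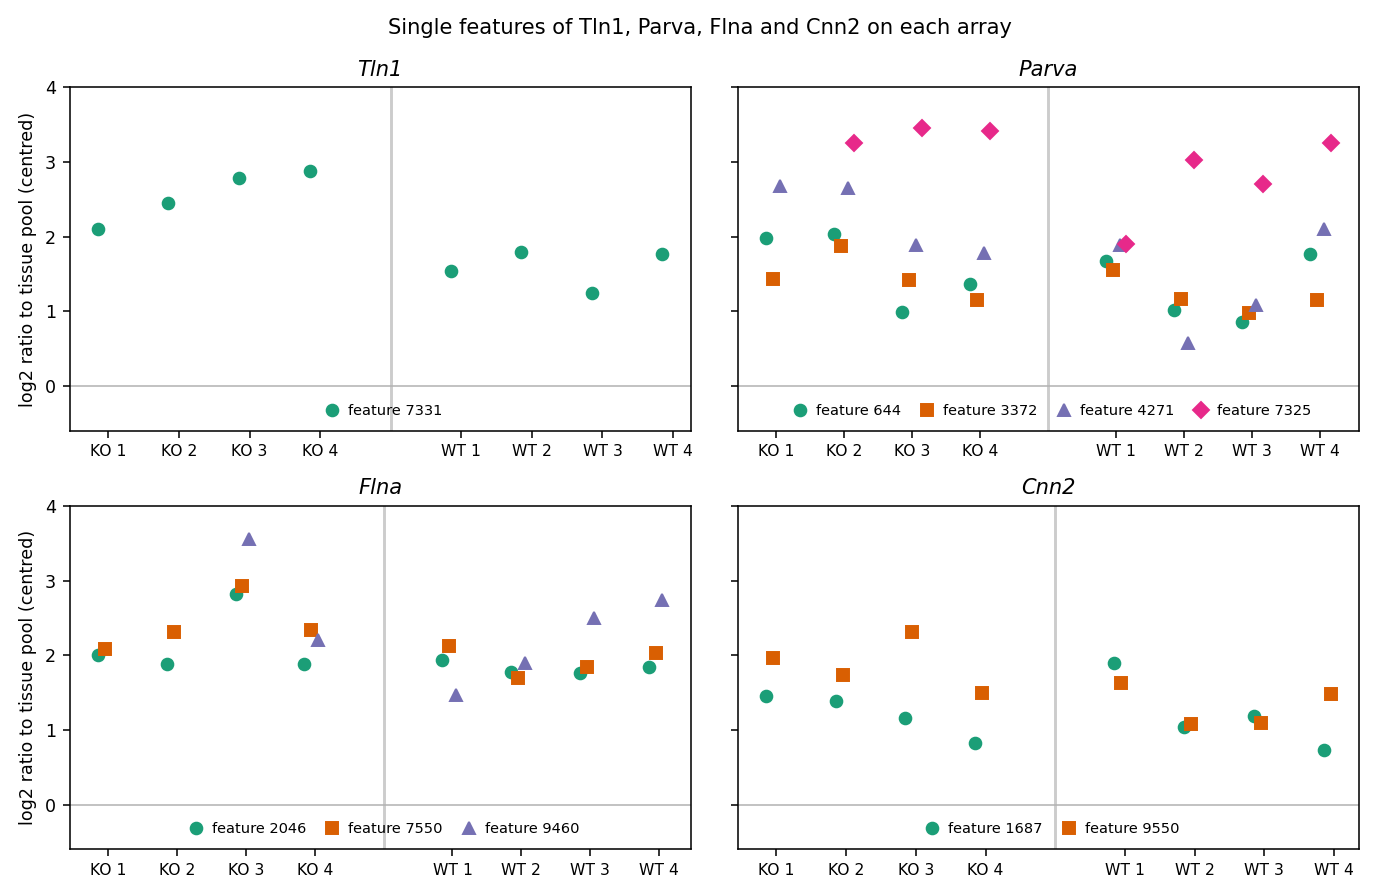
Centred log2 ratio to the tissue pool (y axis) of every feature with a ratio, by array (x axis), for Tln1, Parva, Flna and Cnn2, with Cx43 KO arrays left of WT arrays. Flna features 2046, 7550 and 9460 peak on Cx43 KO 3, Parva feature 7325 runs above the other Parva features (3.25 to 3.46 in Cx43 KO), and the features of Cnn2 differ in their genotype pattern.

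Over single features, 10 of the 11 with a ratio could be tested, and 8 of them had a positive and 2 a negative difference. In the whole table of 3894 features 52.8% were positive, and since the genes were picked on this contrast nothing is read from the count. Tln1 7331, Parva 4271, Flna 7550 and Cnn2 9550 were higher at an unadjusted p of 0.05, against 4.29% of all features. Tln1 7331 and, on 3 Cx43 KO arrays, Parva 7325 had groups that did not overlap. Among the features with 8 values 2.24% lay higher on every Cx43 KO array. That share does not cover Parva 7325, which has 7 values, and the share for such features was not computed here. In the fit over features 0% had an adjusted p under 0.05.

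The second question was whether the genes vary together over the arrays. Pooled r holds the genotype difference on which the genes were chosen, so r of the deviations from the genotype means is given beside it. At the level of gene averages 0 of 10 pairs had an exact permutation p under 0.05. Tln1 correlated with Flna at r = 0.59 (rho 0.57, deviations 0.37) and with Parva at r = 0.58 (rho 0.45, deviations 0.02). With quantile and scale normalization Tln1 and Flna gave 0.22 and 0.0037, and Tln1 and Parva 0.20 and 0.13. Flna correlated with Lims1 at r = -0.69 over 7 arrays (rho -0.46, deviations -0.63). That relation rested on Cx43 KO 3, without which r was 0.04. Over the 10 pairs the smallest exact permutation p was 0.0772 for r (0.416 adjusted over the pairs) and 0.229 for the deviations (0.903 adjusted). The 6 pairs of genes with 8 values had a median r of 0.38, against 0.02 over all 2338203 pairs of named genes with 8 values, and a median of 0.09 for the deviations, against 0.02. With quantile normalization the median r was 0.18, against 0.03 over all pairs, and with scale normalization 0.06, against 0.02. A lot batch holds 2 arrays, 1 of each genotype, so no r within a lot could be had.

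Among single features, 1 pair passed for pooled r after adjustment. The filamin and calponin features 2046 and 9550 correlated at r = 0.83 and rho = 0.90 over 8 arrays (exact permutation test, p = 0.0004 and 0.0046). The adjusted p over 55 feature pairs was 0.0246 for r and 0.251 for rho. The call depended on the scaling, since without centring r was 0.83 (exact permutation test, adjusted p = 0.160), with quantile normalization 0.65 (0.527) and with scale normalization 0.59 (0.598). For deviations from the genotype means r was 0.79 (exact permutation within genotype, p = 0.0069, adjusted 0.382), and 0.92 without Cx43 KO 3. Without the 2 arrays farthest from the median of the filamin feature, Cx43 KO 3 and WT 3, the pooled r was 0.93. Both features were highest on Cx43 KO 3 and lowest on WT 2 and 3.

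The other filamin feature with 8 values had a similar r to that calponin feature, which did not pass after adjustment. Flna 7550 and Cnn2 9550 correlated at r = 0.86 and rho = 0.79 (exact permutation test, p = 0.0053 and 0.0279, adjusted 0.0964 and 0.360), with 0.72 for the deviations (p = 0.0694) and 0.53 without Cx43 KO 3 and WT 2. The second calponin feature, Cnn2 1687, gave r = 0.07 with Flna 2046 and 0.03 with Flna 7550. The value with Flna 2046 rested on Cx43 KO 3, without which it was 0.52 (deviations 0.63). The value with Flna 7550 was 0.12 without that array (deviations 0.18). The 2 calponin features correlated with each other at r = 0.27. Over 194 genes with exactly 2 features on 8 arrays, the median r between the 2 features was 0.39.

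Lims1 had negative pooled r with filamin at the level of features, which depended on the arrays and the scaling. Its feature gave r = -0.81 and rho = -0.75 with Flna 2046 over 7 arrays (exact permutation test, p = 0.0123 and 0.0663, adjusted 0.135 and 0.382), with -0.78 for the deviations (p = 0.139) and -0.69 without Cx43 KO 3 and WT 3. With Flna 7550, r was -0.76 and, without Cx43 KO 3 and WT 2, -0.18. Flna 9460 gave -0.41 over 6 arrays (deviations -0.05), and 0.48 without Cx43 KO 3. Without centring, Lims1 and Flna 2046 gave r = -0.54 and rho = 0.07, and r = 0.74 without Cx43 KO 2 and 3. For the same pair r was -0.59 with quantile and -0.69 with scale normalization.

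Talin and filamin feature 7550 correlated before adjustment, with a lower r once genotype means were removed. The pooled r was 0.77 and rho 0.74 (exact permutation test, p = 0.0177 and 0.0458, adjusted 0.162 and 0.360), and the deviations gave 0.46 (p = 0.370). Without Cx43 KO 3 and 4 the pooled r was 0.61, and with quantile and scale normalization it was 0.45 and 0.30.

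Among features of 1 gene, 3 of the parvin features had positive r with each other, with 0 pairs past adjustment, while the one highest above the pool had no settled relation to them. Parva 644 and 4271 correlated at r = 0.85 and rho = 0.79 (exact permutation test, p = 0.0050 and 0.0279, adjusted 0.0964 and 0.360), with 0.88 for the deviations (p = 0.0521) and 0.97 without Cx43 KO 3 and WT 3. Feature 3372 gave r = 0.66 with 644 and 0.68 with 4271. Feature 7325 gave -0.06, -0.09 and 0.18 with 644, 3372 and 4271 over 7 arrays, and -0.22, -0.57 and -0.26 for the deviations. Without the 2 farthest arrays the pooled values were -0.45, 0.80 and 0.17, so the sign with 3372 turned. Without Cx43 KO 3 alone they were 0.09, -0.15 and 0.15, so the sign with 644 turned. Over the features with 8 values, the 5 pairs within a gene had r of 0.27 to 0.88 (median 0.68), and the 23 pairs between genes -0.28 to 0.86 (median 0.34). For the deviations these medians were 0.61 and 0.08. Of all 55 pairs, 1 passed after adjustment for pooled r and 0 for the deviations. The smallest p possible with permutation within genotype is 0.0017 over 8 arrays, 0.0069 over 7 and 0.0208 over 6. A single pair could therefore not pass for the deviations over 55 pairs, and the 0 is no result about them. Below an unadjusted p of 0.05 lay 8 pairs for pooled r and 2 for the deviations. Besides the filamin and calponin pair above, the second for the deviations was Parva 7325 with Cnn2 1687, at -0.93 over 7 arrays (exact permutation within genotype, p = 0.0139, adjusted 0.382). Its pooled r was -0.79 (rho -0.43, exact permutation test, p = 0.0458, adjusted 0.282) and -0.05 without WT 1 and WT 3.

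**Figure D3:**
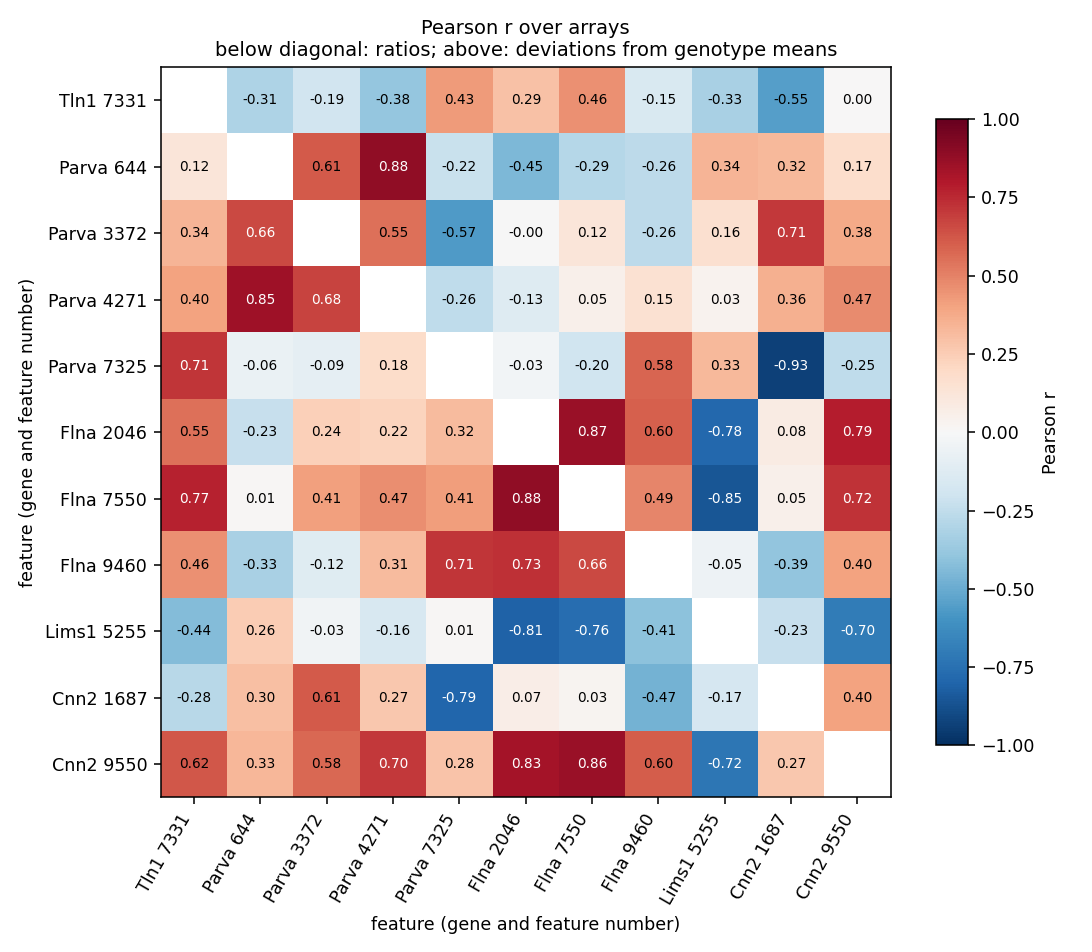
Pearson r between the 11 features with at least 6 ratios, named by gene and feature number on both axes, with the ratios themselves below the diagonal and deviations from genotype means above it. Flna 2046, Flna 7550 and Cnn2 9550 form a positive block (0.83 to 0.88 below the diagonal), Lims1 5255 is negative with them, and Parva 7325 has r of -0.09 to 0.18 with the other Parva features. Part of the block rests on Cx43 KO 3, without which Flna 2046 and Flna 7550 gave 0.64 (deviations 0.38).

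**Figure D4:**
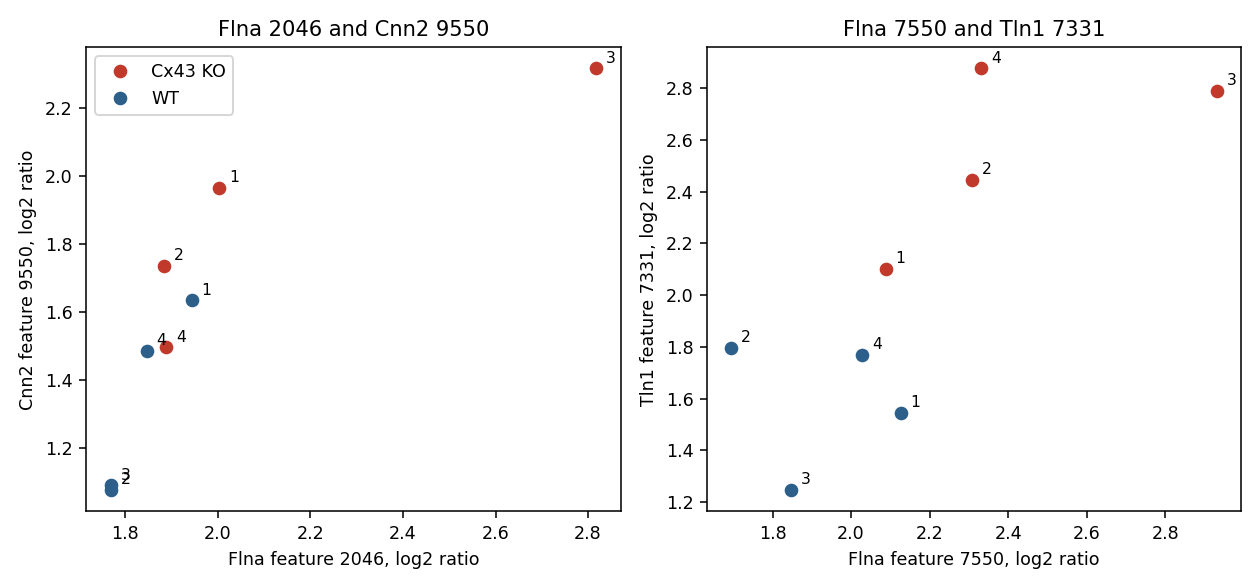
Centred log2 ratios of Flna feature 2046 against Cnn2 feature 9550 (left) and of Flna feature 7550 against Tln1 feature 7331 (right), 1 point per array, Cx43 KO in red and WT in blue, numbered by array. In the left panel the relation runs through both genotypes with Cx43 KO 3 far to the right (2.82, 2.32), and in the right panel the Cx43 KO arrays lie at or above 2.10 for Tln1 and the WT arrays at or below 1.80.

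Markers of other cell types were set beside the members over the same arrays. With the astrocyte mean Tln1 gave r = -0.51 (rho -0.17, exact permutation p = 0.222, deviations -0.33), -0.70 without Cx43 KO 3 and 0.17 without Cx43 KO 4. Tln1 gave r = 0.32 with the microglia and macrophage mean (rho 0.07, exact permutation p = 0.449, deviations 0.59) and 0.02 with the fibroblast and meningeal mean (rho -0.10, exact permutation p = 0.957, deviations 0.57). Without Cx43 KO 3 and 4, the arrays farthest from its median, the microglia and fibroblast values became -0.72 and -0.71, and the astrocyte value 0.05. Without Cx43 KO 4 the Tln1 difference was 0.86. Cnn2 gave -0.55 with the microglia and macrophage mean (rho -0.48, exact permutation p = 0.156) and -0.68 without its 2 farthest arrays. Of 20 relations of the 5 members to these marker means and to detection, 0 passed after adjustment. The smallest adjusted p was 0.869, or 0.139 for the deviations (exact permutation tests). The value of 0.139 belongs to Lims1 with detection, which had the smallest p possible over 7 arrays and so could not pass alone. Single markers with an unadjusted p under 0.05 between the genotypes were Fabp7, an astrocyte and radial glia gene, with a difference of -0.72 (SE 0.27), and Pdgfra, a fibroblast and oligodendrocyte precursor gene, with -2.27 (SE 0.63) over 6 arrays, and both were named after their values were seen. Their part in the differences was not tested.

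By likeness of pattern, the 3 named genes with the highest pooled r to Tln1 over 8 arrays were the chemokine gene Cx3cl1 at 0.95, the proton pump subunit gene Atp6v1c1 at 0.93 and Itpripl2 at 0.91. For the deviations from genotype means they were Prex1, an exchange factor for Rac, at 0.93, Oip5os1 at 0.91 and Tbc1d9 at 0.90. The genes nearest to Flna were Tgfbr3, the transforming growth factor co-receptor betaglycan, at 0.95, the myosin gene Myo5a at 0.90 and Plpp7 at 0.88. In the deviations they were Selenop at 0.95, Tgfbr3 again at 0.94 and Slc29a3 at 0.92. Parva was nearest to Urgcp at 0.97, Arhgef25 at 0.92 and the DNA polymerase gene Polk at 0.92, and in the deviations to Urgcp, Rrp7a and Polk at 0.98, 0.96 and 0.94. Cnn2 was nearest to the sorting nexin gene Snx9 at 0.93, Nolc1 at 0.91 and Bclaf1 at 0.90, and in the deviations to Gata6, Gm11223 and Sufu at 0.96, 0.95 and 0.94. These are the highest of 2163 genes and carry no test. Members themselves were left out of this ranking.

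Other genes of adhesion and actin were taken from lists of 144 genes, of which 61 were on the array and 14 of these had a ratio on 0 arrays. Besides the members 26 could be tested, with 15 higher and 11 lower in Cx43 KO and a median difference of 0.11, against 52.6% higher and a median of 0.02 over all 3505 tested. With limma 0 of the 26 had an adjusted p under 0.05, while 2 were higher (Cald1 and Iqgap1) and 0 lower at an unadjusted 0.05. Over all tested these shares were 3.85% and 3.65%, and nothing is read from the count. Under no centring, quantile or scale normalization 5 of the 26 changed sign, namely Tns1, Pxn, Tgfb1i1, Crkl and Twf1.

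Integrins, the receptors that talin and kindlin activate, were poorly covered. Of 10 on the array, Itga3, Itga5, Itga11, Itgb2 and Itgb5 had a ratio on 0 arrays, and 2 could be tested. Itgb1, the beta subunit shared by most matrix receptors, read -0.47, -0.30, 1.13 and 1.83 on Cx43 KO arrays 1 to 4 and 1.89, 0.21, 1.18 and 1.01 on WT arrays 1 to 4, a difference of -0.52 (SE 0.52). It was -0.95 without Cx43 KO 4 and -0.19 without Cx43 KO 1. Its low arrays, Cx43 KO 1 and 2, were also the lowest in fibroblast and meningeal markers. Itga6, a laminin receptor subunit, differed by -0.20 (SE 0.20).

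Of the other linkers between integrins and actin, 4 had a positive and 2 a negative difference, and 0 passed. Vcl (vinculin, which binds talin and actin) read 1.28, 1.20, 1.33 and 1.04 in Cx43 KO and 1.83, 1.04, 1.00 and 1.27 in WT, a difference of -0.07 (SE 0.21), and was named after its values were seen. The kindlin gene Fermt2 differed by 0.25 (SE 0.31), the tensin gene Tns2 by 0.31 (SE 0.33) and Flnc, the muscle paralog of Flna, by 0.27 (SE 0.18). Flnc was 0.79, 0.81, 1.17 and 1.21 in Cx43 KO and 0.88, 0.82, 0.81 and 0.42 in WT, with overlapping groups. Quantile normalization brought it to 0.12. Fermt2 was -0.03 without Cx43 KO 1, and Tns2 was 0.09 without WT 2 and 0.69 without WT 4. The alpha-actinin gene Actn1 had a ratio on 0 arrays.

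Among 5 kinase, phosphatase and adaptor genes of adhesions 4 had a positive difference, and 0 passed. Git1, an adaptor that binds paxillin, differed by 1.16 (SE 0.62), with -0.49, -1.15, 1.97 and 0.95 in Cx43 KO and -1.74, -0.02, -0.99 and -0.61 in WT. Without Cx43 KO 3 it was 0.61. Csk, the kinase that restrains Src, differed by 0.46 (SE 0.28) and the phosphatase Ptpn12 by 0.33 (SE 0.21). Without WT 2 these were 0.27 and 0.22. Among scaffolds the caveolar protein gene Cav1 differed by -0.35 (SE 0.27), the paxillin relative Tgfb1i1 by 0.16 (SE 0.32) and the adaptor Crkl by 0.07 (SE 0.23), the last turning to -0.05 and -0.07 with quantile and scale normalization. Cav1 was -0.11 without WT 1 and Tgfb1i1 -0.12 without WT 2.

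Among actin-binding genes, Cald1 resembled Tln1 in its separation of the genotypes. Cald1 encodes caldesmon, which binds actin, myosin and tropomyosin. It read 2.14, 2.51, 2.19 and 2.22 on Cx43 KO arrays 1 to 4, against 1.86, 1.36, 1.49 and 1.89 on WT arrays 1 to 4, so the groups did not overlap. The difference was 0.62 (SE 0.18, limma adjusted p = 0.58), and 0.35 and 0.31 with quantile and scale normalization. Cald1 has 4 features on the array, and how many of them gave a ratio is not given here. Iqgap1, a scaffold that crosslinks actin, differed by 0.59 (SE 0.26), with 0.34 without Cx43 KO 4, and Pfn2 and Add3 by 0.21 (SE 0.25) and -0.16 (SE 0.20). The calponin and transgelin relatives lay on the other side of 0, with Cnn1 at -0.13 (SE 0.53) and Tagln3 at -0.44 (SE 0.30). Without Cx43 KO 4, Cnn1 turned to 0.40, Tagln3 was -0.22 and Add3 -0.05. Pfn2 was 0.03 without Cx43 KO 2. Of the parvin relatives, Parvb had a ratio on 3 arrays and Parvg on 0, and Tln2, Lims2 and Cnn3 were not analysed here.

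**Figure D5:**
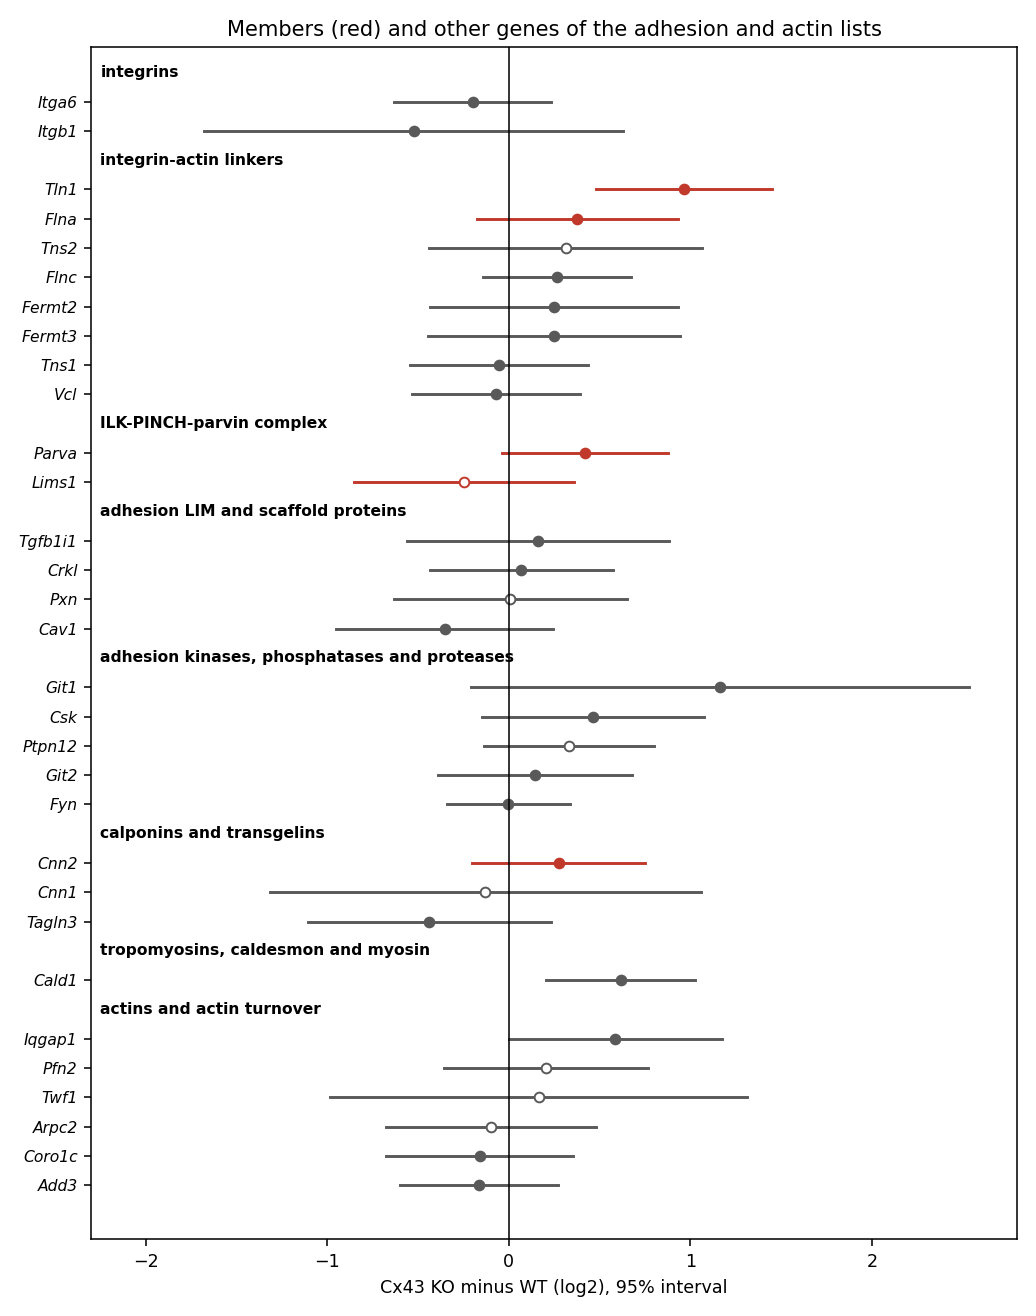
Cx43 KO minus WT difference on the log2 scale (x axis) with its 95% interval from the fit over all genes, for the members (red) and the other tested genes of the adhesion and actin lists (grey), with open points for genes measured on fewer than 8 arrays. Tln1 (0.96) and Cald1 (0.62) have intervals above 0 and Iqgap1 just reaches above it, while the remaining intervals include 0.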

How the data were processed

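RNA from cultured astrocytes was measured on 2-colour arrays, 4 Cx43 KO and 4 WT, each against a tissue pool, with groups taken from the titles. The deposited values are signed log ratios without a stated base, read here as log2; the sources used here give no scanner, dye, background correction or normalization. Names came from the platform annotation: 7307 features had 1 symbol, 318 several and 1943 none. The median nonzero ratio of an array was subtracted from its ratios. Features with 1 symbol were averaged per gene, and rows with at least 3 values per genotype (3505) were fitted with limma 3.58.1 (R 4.3.3, lmFit and eBayes, two-sided, no block, Benjamini-Hochberg over all rows, threshold 0.05). Features were fitted singly in the same way.

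The members, lists and tests were chosen with earlier results of these data known. Named genes were the members, their family neighbours, the 3 genes per list with the smallest p and the 3 genes most like each member, pooled and for deviations. Correlations used exact permutation of arrays (within genotype for deviations, where the smallest p is 0.0017 over 8 arrays) in Python 3.11.15. Same-numbered arrays share a lot batch per the labels; their deviations from genotype means correlated across genes at -0.18, 0.19, -0.13 and -0.19 for lots 1 to 4. The adult tissue genes and promoter motifs were picked after values were seen. The fit was tested on simulated data. Alternatives were other normalizations, the lot block, array weights, 0 as a value, other value minimums, leaving out arrays or lots, and the single feature with the most values; averaging only features with a ratio on all arrays, and the scalings of the pair medians and feature pairs, were added after seeing the data. The arrays give no counts here, and their number limits the precision.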

Additional observations from a re-analysis of the deposited data

Results flagged for a closer look

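Within groups of 4 arrays, 6 of 78 groups had an end value whose gap to the nearest other value took up more of the group's range than Dixon's 95% limit allows, a test that marks about 1 in 20 groups by chance. Cx43 KO 3 was such a high value for Flna, at 3.10 against 2.14 on the next Cx43 KO array, for Flna feature 2046, at 2.82 against 2.00, and for the integrin Itga6, at 1.26 against 0.78. Cx43 KO 4 was such a low value for the astrocyte marker mean, at 0.49 against 1.66. WT 1 was such a high value for Cnn2, at 1.76 against 1.14 on the next WT array, and WT 4 a low one for Flnc, at 0.42 against 0.81.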

How the results depend on the processing

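The genotype differences of the 5 genes had an adjusted p under 0.05 in 0 of up to 22 alternatives each. With the lot batch as replicate block they were 0.96 for Tln1, 0.42 for Parva, 0.38 for Flna, -0.37 for Lims1 and 0.27 for Cnn2, and the block changed no call. Tln1 was 0.62 with quantile normalization, 0.63 with scale normalization and 0.32 with 0 kept as a ratio, which averages in 2 features that are 0 on all arrays. Parva was 0.13 with scale normalization. Of the list genes 9 of the 18 still tested, against 15 of 26, were higher over features with a ratio on all arrays, where fewer genes are tested. Lims1 gave no value there or with 8 values required.

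Pooled r between gene averages changed sign or side of 0.05 as follows, and the cause was not tested. Parva and Lims1, at -0.00, gave 0.15 without centring, 0.30 with quantile and 0.25 with scale normalization, and 0.26 with the feature with the most values. Tln1 and Cnn2 gave -0.028, -0.13 and -0.28 under the last 3 of these, and Parva and Flna gave -0.10, -0.44 and -0.23. Flna and Lims1 gave -0.83 with 0 kept as a ratio and -0.81 with the feature with the most values. Flna and Cnn2 gave -0.0075 with 0 kept and 0.61 over features with a ratio on all arrays, where Tln1 and Flna gave 0.69. Leaving out 1 array gave -0.55 to 0.24 for Parva and Lims1, -0.89 to 0.043 for Flna and Lims1, -0.18 to 0.57 for Flna and Cnn2 and -0.85 to -0.35 for Lims1 and Cnn2. Among the 55 feature pairs 1 passed after adjustment, and 0 passed without centring or with quantile or scale normalization. Signal over background was not analysed here, and an exact 0 leaves a level unknown.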
